A study of Mus musculus with 32 samples.

Results

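The coagulation and fibrinolysis genes described here are 35 mouse genes out of the 52636 in a liver count table. They were chosen by name for their place in blood clotting, with earlier results of these data known, and each symbol was matched to the Ensembl identifier of the table. All 35 passed the filter on low counts and were tested among 15599 genes. They were described across 8 groups of 4 mice: Thrb knockout mice given triiodothyronine (T3) and carbon tetrachloride (KO T3 CCl4), KO T3 oil, KO PBS CCl4, KO PBS oil, wild-type mice given T3 and CCl4 (WT T3 CCl4), WT T3 oil, WT PBS CCl4 and WT PBS oil. Thrb encodes thyroid hormone receptor beta, the main T3 receptor of hepatocytes, and the labels call the allele a knockout without giving its structure. All mice, the oil and PBS controls too, were kept on a PTU/LID diet, a thyroid-suppressing chow, so that the PBS groups were hypothyroid and the T3 groups had hormone replaced. CCl4, which cytochrome P450 enzymes of hepatocytes turn into a toxic radical, was given at 0.4 µl/g in 9 injections, 2 per week over 4 weeks, with oil as its control. T3 was supplied at 1 µg/ml of drinking water through the final week, with PBS as its control, and livers were taken 24 hours after the last injection. The labels carry an animal number for each library, so replicates were separate mice, and their strain and age were not given in the sources used here.

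Blood clotting is a cascade of serine proteases, most of them made by hepatocytes and secreted as inactive precursors. Tissue factor with factor VII starts the extrinsic branch, factor XII with kallikrein and kininogen starts the contact branch, and both lead through factor X to thrombin, which turns fibrinogen into fibrin. Antithrombin, protein C and protein S hold the cascade back, and plasmin, made from plasminogen by tissue or urokinase activators, dissolves the clot. Several factors work only after a vitamin K-dependent carboxylation in the hepatocyte. Fibrinogen is also an acute-phase protein, made in larger amounts by hepatocytes exposed to interleukin-6, and thyroid state is known to alter plasma clotting factors.

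Library totals ran from 16985162 to 26118055 counts. Levels are CPM, counts scaled to a common library size with TMM factors, and a member was called where the Benjamini-Hochberg adjusted p of edgeR's quasi-likelihood test, fitted across all 32 libraries, was below 0.05. Dio1, a direct T3 target, read 77.3 to 135 CPM in KO T3 livers, 3.95 to 20.02 CPM in KO PBS livers, 844 to 1185 CPM in WT T3 livers and 0.295 to 1.00 CPM in WT PBS livers. Thrb itself kept reads in the KO, at 15.9 to 33.7 CPM in KO T3 and 15.9 to 42.6 CPM in KO PBS livers, against 32.8 to 60.6 CPM in WT T3 and 10.7 to 66.4 CPM in WT PBS livers. Taken by group, Thrb was lower in every KO than in every WT liver in PBS oil (30.7 to 42.6 against 50.2 to 66.4 CPM). The same held in T3 oil (22.7 to 33.7 against 43.2 to 60.6 CPM) and T3 CCl4 (15.9 to 24.4 against 32.8 to 44.4 CPM). In PBS CCl4 the genotypes overlapped (15.9 to 23.1 against 10.7 to 33.1 CPM), and the WT mean was 23.5 CPM there against 59.0 CPM in WT PBS oil. The deleted part is not known here, so reads over the whole gene do not show it. The 2 libraries farthest from their group means were KO PBS CCl4 replicate 3 and WT PBS CCl4 replicate 2, at distances of 60.3 and 66.0 over all genes. WT PBS CCl4 replicate 4 came next at 52.6, before KO T3 oil replicate 2 at 38.9, and was kept where the 2 were left out together. The 9 matched hepatocyte markers summed to 105926 to 135571 CPM in KO T3 CCl4 livers and to 57730.2 to 79057 CPM in WT PBS CCl4 livers, high in every library as in liver. In whole liver, fewer cells of a type and less RNA per cell cannot be told apart.

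The promoter windows of the fibrinogen chains and of F12 are shown first. These 4 genes are among the 11 members called between KO T3 CCl4 and WT T3 CCl4 livers. They were picked with earlier results of these data known, and the windows of the other called members are not shown. Fgg (ENSMUSG00000033860, chromosome 3, 83007724 to 83015049, plus strand), Fga (ENSMUSG00000028001, chromosome 3, 83026076 to 83033627, plus strand) and Fgb (ENSMUSG00000033831, chromosome 3, 83040141 to 83049863, minus strand) encode the gamma, alpha and beta chains of fibrinogen and lie next to each other, with 11 kb and 6.5 kb between them and no other protein-coding gene inside. F12 (ENSMUSG00000021492, chromosome 13, 55417958 to 55426793, minus strand) encodes factor XII. The windows are the 250 bases before the RefSeq start on GRCm38.p6, Fga at chr3:83025903-83026152 on the plus strand, Fgb at chr3:83049864-83050113 on the minus strand, Fgg at chr3:83007474-83007723 on the plus strand and F12 at chr13:55426805-55427054 on the minus strand. GENCODE places the start of Fga inside its window, at 83026076. Capitals mark matches to 5 short motifs on either strand.
Fga: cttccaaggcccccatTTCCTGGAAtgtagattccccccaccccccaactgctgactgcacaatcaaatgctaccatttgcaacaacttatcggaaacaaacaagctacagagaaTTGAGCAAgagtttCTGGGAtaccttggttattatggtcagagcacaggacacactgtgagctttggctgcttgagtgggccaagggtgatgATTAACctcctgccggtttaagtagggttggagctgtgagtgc
Fgb: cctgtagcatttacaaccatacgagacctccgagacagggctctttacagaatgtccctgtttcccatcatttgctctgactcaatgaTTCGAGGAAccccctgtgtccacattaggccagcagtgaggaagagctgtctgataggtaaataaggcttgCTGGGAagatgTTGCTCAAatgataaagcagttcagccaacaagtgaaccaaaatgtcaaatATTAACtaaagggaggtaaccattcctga
Fgg: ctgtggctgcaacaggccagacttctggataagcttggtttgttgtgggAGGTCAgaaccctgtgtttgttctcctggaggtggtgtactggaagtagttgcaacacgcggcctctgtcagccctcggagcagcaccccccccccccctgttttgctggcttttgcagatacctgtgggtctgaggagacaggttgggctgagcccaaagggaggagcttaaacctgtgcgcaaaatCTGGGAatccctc
F12: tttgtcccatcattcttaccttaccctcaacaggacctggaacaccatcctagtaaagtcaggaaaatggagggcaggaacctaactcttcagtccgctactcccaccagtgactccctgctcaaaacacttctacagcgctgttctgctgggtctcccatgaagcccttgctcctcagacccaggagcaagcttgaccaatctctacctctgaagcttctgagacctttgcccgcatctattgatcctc
The Fga and Fgb windows each held 4 matches of the same kinds: a STAT site (TTCNNNGAA), a type II interleukin-6 element (CTGGGA), a C/EBP core (TTGCNNAA) and an HNF1 half-site (GTTAAT). Fgg held 2, the thyroid receptor half-site AGGTCA and CTGGGA, and the F12 window held 0. No match overlapped another in these windows. Windows were found for 27 of the 35 members, 29 in all. AGGTCA stood in 7 of the 29 against 14% of all 32851 windows, CTGGGA in 10 against 27%, TTCNNNGAA in 4 against 7%, GTTAAT in 4 against 6.4% and TTGCNNAA in 9 against 9.6%. A match is a run of letters and not a shown binding site, and a window without one says nothing about the factor.

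The members spanned a wide range of levels in WT PBS oil livers. Per kilobase of exon, Fgg stood at 1905 ± 269 CPM per kb (SD, n = 4), Fga at 1595 ± 167 and Fgb at 1245 ± 112, followed by kininogen Kng1 at 788 ± 75.8 and plasminogen Plg at 638 ± 80.6. The lowest member counted as a hepatocyte product was protein S, Pros1, at 13.4 ± 0.809 CPM per kb. All 9 members that other cells mainly make stood below it, and the highest of those, the tissue factor pathway inhibitor Tfpi, reached 1.65 ± 0.302 CPM per kb. F13a1, the A subunit of factor XIII and a macrophage and megakaryocyte product, was the lowest of all at 0.0461 ± 0.0269 CPM per kb. Of the 34 pairs of neighbours in this order, 16 differed by less than their pooled SD, among them Hrg and F2, Serpinf2 and Serpind1, and Proc and F12. The order also depended on the length used. Per kilobase of the longest transcript, Kng1 stood at 1136 CPM per kb beside Fgb at 1245. Serpinc1 (493) then passed Serpind1 (323), and F2 (677) passed Hrg (555). In single libraries, F13a1 of uninjured livers rested on as few as 1 read and Plat on as few as 3, so their fold changes carry wide errors.

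**Figure D1:**
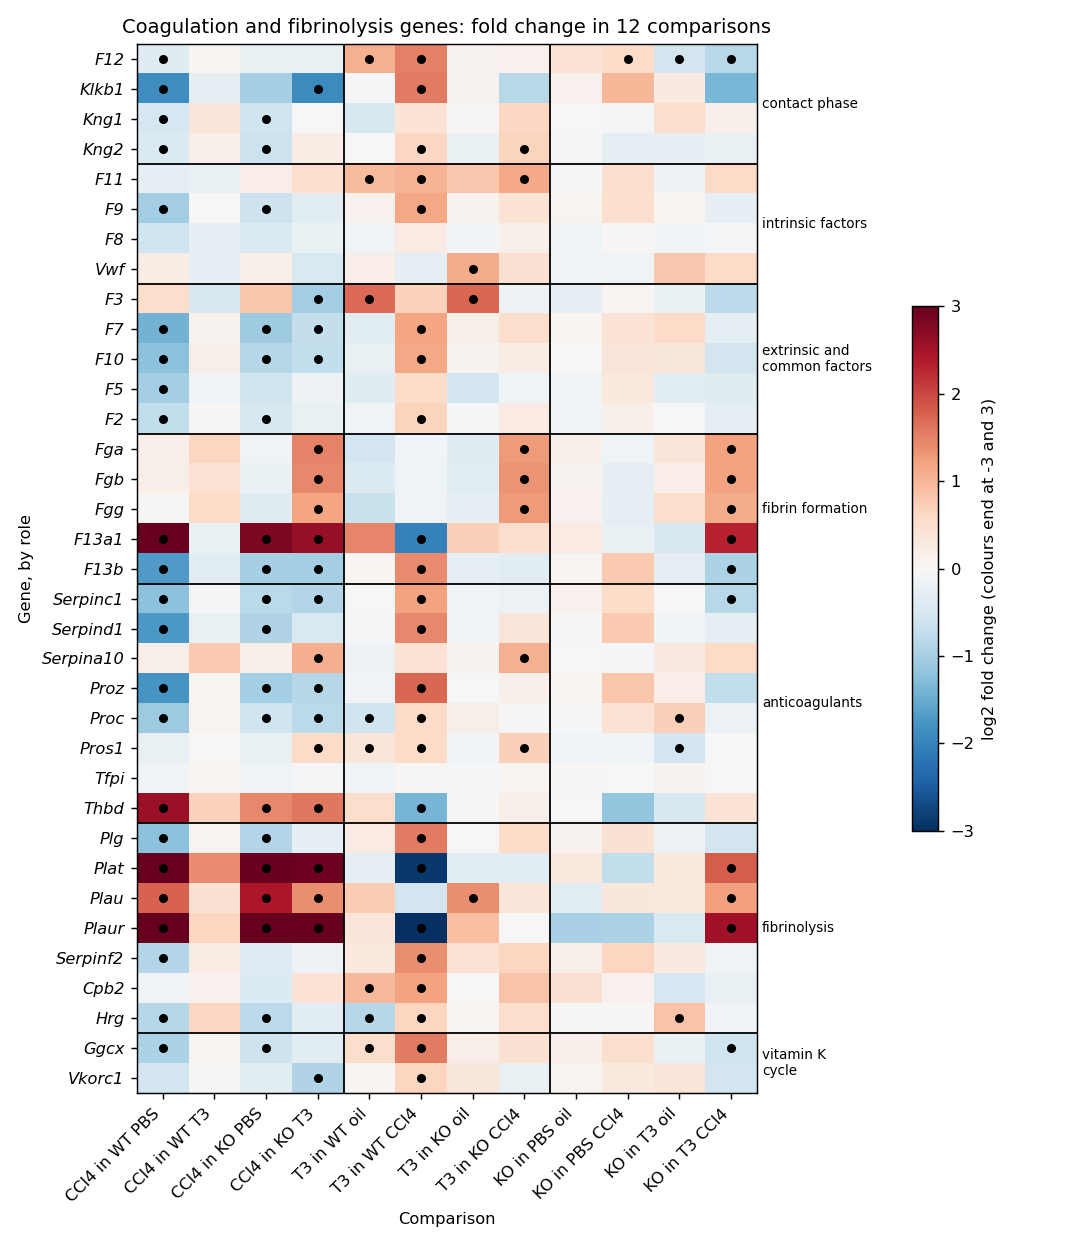
Heat map of the log2 fold change of the 35 members (rows, by role) in 12 comparisons (columns, in which the factor named first is set against its control), with a dot on each called member and colours ending at -3 and 3. In WT PBS livers CCl4 lowered most hepatocyte factors and raised Plaur, Plat, F13a1, Thbd and Plau, and the column for CCl4 in WT T3 holds no dot.

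CCl4 in hypothyroid wild-type livers lowered most of the clotting factors that hepatocytes secrete and raised the genes of plasminogen activation. Between WT PBS CCl4 and WT PBS oil livers, 23 of 35 members were called, 5 higher and 18 lower, where 46.2% of the tested genes were called, 24.6% up and 21.6% down. Of the 24 hepatocyte members 17 fell and 0 rose, and of the 9 members of other cells 5 rose and 0 fell. The median of the 35 was -0.53 on the log2 scale, against 0.039 over all genes.

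By role, all 4 contact-phase genes were called lower, though Kng1, Kng2 and F12 were not when scaled by library totals alone. Klkb1, plasma prekallikrein, changed by -1.86 ± 0.52 (log2 ± SE) and Kng1, Kng2 and F12 by -0.53, -0.42 and -0.37. Factor IX, F9, the protease that works with factor VIII, fell to 95.9, 72.3, 102 and 132 CPM in WT PBS CCl4 livers, against 245, 203, 219 and 166 CPM in WT PBS oil livers (log2 fold change -1.05 ± 0.17 SE, adjusted p = 2.27e-05). The groups did not overlap. Factor VII, F7, the partner of tissue factor, read 32.2, 19.1, 38.1 and 50.7 CPM in WT PBS CCl4 livers, against 98.8, 95.6, 96.4 and 81.9 CPM in WT PBS oil livers (-1.41 ± 0.22 SE, adjusted p = 2.13e-05). Every injured liver lay below every control. F10, F5 and F2, which encode the protease, the cofactor and the thrombin precursor of the common path, fell by 1.22, 1.03 and 0.74 on the log2 scale, and tissue factor itself, F3, was not called (0.53 ± 0.34 SE, adjusted p = 0.211).

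The fibrinogen chains did not follow these factors. Fga averaged 5327 ± 2195 CPM in WT PBS CCl4 livers and 4799.8 ± 503 CPM in WT PBS oil livers (SD, n = 4 each), a log2 difference of 0.15 ± 0.34, and Fgb and Fgg differed by 0.17 ± 0.29 and 0.025 ± 0.34. None of the 3 was called, and the injured livers scattered above and below the controls. F13b, the carrier subunit of factor XIII, read 61.04, 40.1, 60.1 and 132 CPM in WT PBS CCl4 livers, against 282, 240.3, 246 and 187 CPM in WT PBS oil livers (log2 fold change -1.71 ± 0.28 SE, adjusted p = 2.7e-05). The catalytic subunit F13a1 (ENSMUSG00000039109, chromosome 13, 36867178 to 37050244, minus strand) moved the other way, at 2.48, 4.49, 3.395 and 1.78 CPM in WT PBS CCl4 livers, against 0.225, 0.274, 0.168 and 0.575 CPM in WT PBS oil livers (log2 fold change 3.28 ± 0.57 SE, adjusted p = 6.37e-05).

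Among the anticoagulants, 4 fell and 1 rose. Serpinc1 (ENSMUSG00000026715, chromosome 1, 160978585 to 161005863, plus strand), antithrombin, read 969, 736, 851 and 1618 CPM in WT PBS CCl4 livers, against 2489, 2647, 2244 and 2422 CPM in WT PBS oil livers (log2 fold change -1.23 ± 0.21 SE, adjusted p = 5.43e-05). Protein Z, Proz, a cofactor for the inhibition of factor X, had 122, 48.5, 94.99 and 189.97 CPM in WT PBS CCl4 livers, against 463, 417, 377 and 287 CPM in WT PBS oil livers (-1.76 ± 0.33 SE, adjusted p = 0.000132). Protein C, Proc, which inactivates the cofactors, had 215, 147, 207 and 309.6 CPM in WT PBS CCl4 livers, against 495, 553, 439 and 373 CPM in WT PBS oil livers (-1.08 ± 0.20 SE, adjusted p = 0.00014). In all 3 the injured livers lay below the controls. Serpind1, heparin cofactor II, fell by 1.73 on the log2 scale. Pi4ka overlaps it on the opposite strand with 10.9% as many counts. Thrombomodulin, Thbd, an endothelial receptor that lets thrombin activate protein C, read 8.82, 67.9, 13.1 and 12.1 CPM in WT PBS CCl4 livers, against 4.78, 3.18, 4.798 and 4.03 CPM in WT PBS oil livers (log2 fold change 2.60 ± 0.44 SE, adjusted p = 4.94e-05). Replicate 2 stood far above the other injured livers.

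In fibrinolysis the precursor and its activators separated. Plg, plasminogen, fell by 1.23 on the log2 scale, and so did Serpinf2, the main plasmin inhibitor, by 0.89 and Hrg, a plasminogen-binding glycoprotein, by 0.85. Plaur (ENSMUSG00000046223, chromosome 7, 24462484 to 24475968, plus strand), the urokinase receptor, read 18.8, 43.3, 14.3 and 5.37 CPM in WT PBS CCl4 livers, against 1.18, 1.48, 0.421 and 0.68 CPM in WT PBS oil livers (log2 fold change 4.46 ± 0.54 SE, adjusted p = 6.81e-07). Plat (ENSMUSG00000031538, chromosome 8, 22757727 to 22782844, plus strand), tissue plasminogen activator, read 10.5, 23.5, 5.07 and 6.22 CPM in WT PBS CCl4 livers, against 0.169, 0.768, 0.8 and 0.994 CPM in WT PBS oil livers (log2 fold change 4.03 ± 0.55 SE, adjusted p = 3.65e-06). Plau, urokinase, had 2.77, 2.68, 2.72 and 1.33 CPM in WT PBS CCl4 livers, against 0.844, 0.439, 0.421 and 1.098 CPM in WT PBS oil livers (log2 fold change 1.77 ± 0.42 SE, adjusted p = 0.00115). For all 3 every injured liver exceeded every control, and for Plaur and Plat replicate 2 was the highest. Ggcx, the vitamin K-dependent carboxylase, fell by 0.95 on the log2 scale.

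Of the 22 other pathway genes tested, 16 were called between WT PBS CCl4 and WT PBS oil livers, 11 higher and 5 lower. Anxa2, a plasminogen and tissue activator receptor subunit, averaged 347 ± 173 CPM in WT PBS CCl4 and 39.6 ± 20.4 CPM in WT PBS oil livers (log2 fold change 3.13 ± 0.36 SE, adjusted p = 4.76e-07). Procr, the protein C receptor, rose by 3.87 ± 0.47, and Thbs1, a platelet and matrix glycoprotein, by 3.47 ± 0.49 (log2 ± SE). Cell markers moved beside these genes. Of the 9 hepatocyte markers 7 fell, their sum running from 57730.2 to 79057 CPM in WT PBS CCl4 livers, against 130239 to 185048 CPM in WT PBS oil livers. All 8 monocyte-derived macrophage markers rose (228 to 665 CPM in WT PBS CCl4, against 36.5 to 65.1 CPM in WT PBS oil), as did all 6 myofibroblast markers (67.4 to 183 CPM in WT PBS CCl4, against 40.7 to 70.4 CPM in WT PBS oil) and all 4 tested neutrophil markers (17.5 to 292 CPM in WT PBS CCl4, against 3.79 to 10.7 CPM in WT PBS oil). Of the 10 endothelial markers 1 rose and 3 fell. The platelet marker sum ran from 6.25 to 11.96 CPM in WT PBS CCl4, against 4.08 to 6.03 CPM in WT PBS oil. The cholangiocyte sum overlapped (124 to 341 against 47.2 to 164 CPM). The neutrophil markers Ly6g and Mpo did not pass the filter and were at 0 in some libraries. The part of these cells in the members' changes was not tested. Kng1 lost its call without WT PBS CCl4 replicate 1, or WT PBS oil replicate 1 or 2 (highest adjusted p = 0.0702). Kng2 lost its call without WT PBS CCl4 replicate 1 or 4, or WT PBS oil replicate 1 or 2 (highest adjusted p = 0.13). F12 lost its call without WT PBS CCl4 replicate 1, 2 or 3, or WT PBS oil replicate 1 or 2 (highest adjusted p = 0.125). Scaling by library totals alone moved the median of all genes to 0.434 and the split of called members to 8 higher and 15 lower. F12 then gave 0.021, Kng1 -0.13 and Kng2 -0.026 on the log2 scale, and none of them was called.

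**Figure D2:**
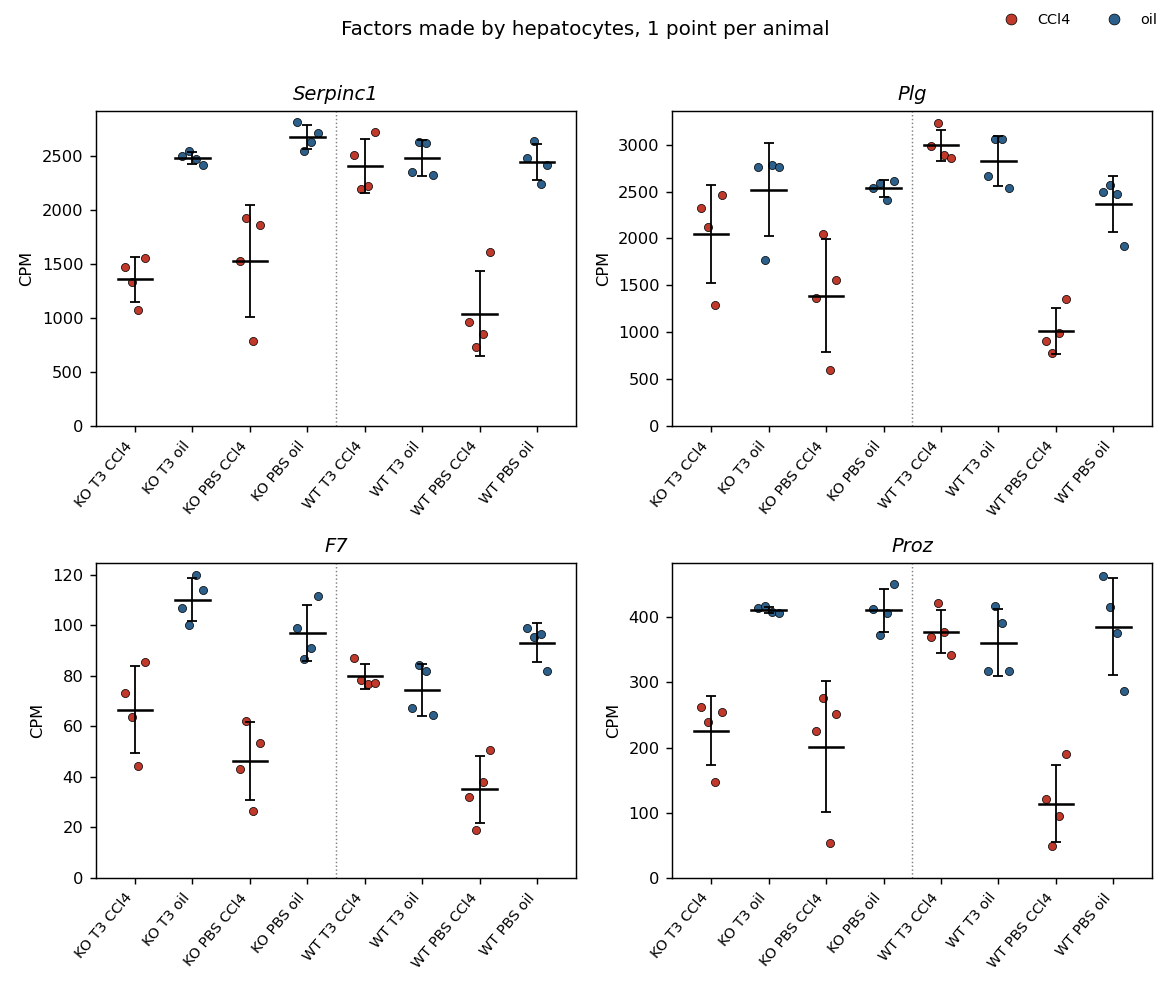
CPM of Serpinc1, Plg, F7 and Proz in each of 32 livers, with the 8 groups along the x axis, a bar for the mean and whiskers for the SD of 4 animals. The WT PBS CCl4 livers lie below the WT PBS oil livers for all 4 genes, while the WT T3 CCl4 and WT T3 oil livers overlap.

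T3 in injured wild-type livers raised most of the hepatocyte-made factors and lowered several members of other cells. Between WT T3 CCl4 and WT PBS CCl4 livers, 24 of 35 members were called, 20 higher and 4 lower, where 41.7% of the tested genes were called, 20% up and 21.7% down. Hepatocyte members rose in 18 of 24 cases and fell in 0, and members of other cells fell in 4 of 9. The median of the members was 0.63, against -0.065 over all genes. This comparison and the CCl4 comparison above share the WT PBS CCl4 livers, so their values are set side by side and not correlated.

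F12 showed the smallest adjusted p of the members. It had 633, 839, 824 and 784 CPM in WT T3 CCl4 livers, against 234, 283, 254 and 315 CPM in WT PBS CCl4 livers (log2 fold change 1.5 ± 0.15 SE, adjusted p = 1.71e-08). The groups lay far apart. F9 had 218, 235, 205 and 237 CPM in WT T3 CCl4 livers, against the 95.9, 72.3, 102 and 132 CPM of WT PBS CCl4 livers (log2 fold change 1.16 ± 0.17 SE, adjusted p = 4.06e-06). Serpinc1 had 2516, 2194, 2224 and 2723 CPM in WT T3 CCl4 livers, against 969, 736, 851 and 1618 CPM in WT PBS CCl4 livers (1.21 ± 0.21 SE, adjusted p = 5.31e-05). Neither gene overlapped between the groups.

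Plasminogen and its inhibitor rose together. Plg had 2988, 3231, 2893 and 2858 CPM in WT T3 CCl4 livers, against 911, 781, 998 and 1355 CPM in WT PBS CCl4 livers (log2 fold change 1.57 ± 0.25 SE, adjusted p = 1.4e-05). Serpinf2 had 1158, 1104, 1082 and 1056 CPM in WT T3 CCl4 livers, against 438, 285, 475 and 463 CPM in WT PBS CCl4 livers (log2 fold change 1.41 ± 0.25 SE, adjusted p = 5.36e-05). The T3 livers were close to each other and all above the PBS livers. Ggcx had 102, 106, 108 and 106 CPM in WT T3 CCl4 livers, against 33.9, 18.7, 39.2 and 54.3 CPM in WT PBS CCl4 livers (log2 fold change 1.53 ± 0.21 SE, adjusted p = 1.37e-06), and Vkorc1, the reductase that recycles vitamin K, rose by 0.63 (adjusted p = 0.0357). The other 13 members that rose did so by 0.57 (Proc) to 1.73 (Proz) on the log2 scale, and the fibrinogen chains again were not called, with differences of -0.07 for Fga, -0.14 for Fgb and -0.10 for Fgg.

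The members that fell with T3 were those of other cells. Plaur had 2.28, 1.63, 1.86 and 1.69 CPM in WT T3 CCl4 livers, against 18.8, 43.3, 14.3 and 5.37 CPM in WT PBS CCl4 livers (log2 fold change -3.45 ± 0.50 SE, adjusted p = 3.89e-06). Plat had 0.513, 1.74, 1.77 and 2.07 CPM in WT T3 CCl4 livers, against 10.5, 23.5, 5.07 and 6.22 CPM in WT PBS CCl4 livers (log2 fold change -2.89 ± 0.51 SE, adjusted p = 5.7e-05). F13a1 had 1.35, 0.233, 0.605 and 0.763 CPM in WT T3 CCl4 livers, against 2.48, 4.49, 3.395 and 1.78 CPM in WT PBS CCl4 livers (log2 fold change -2.02 ± 0.51 SE, adjusted p = 0.00248). For these 3 every T3 liver lay below every PBS liver. Thbd had 6.85, 11.8, 10.6 and 9.59 CPM in WT T3 CCl4 livers, against 8.82, 67.9, 13.1 and 12.1 CPM in WT PBS CCl4 livers, and its call (-1.39 ± 0.42 SE, adjusted p = 0.00923) rested on WT PBS CCl4 replicate 2, since the adjusted p without it was 0.538. Among the 22 other pathway genes 14 were called, 4 higher and 10 lower, with Anxa2 at -2.66 ± 0.36, Thbs1 at -2.87 ± 0.47, Procr at -2.44 ± 0.43 and the thrombin receptor F2r at -0.96 ± 0.19 (log2 ± SE).

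Markers moved beside these members too. All 4 tested neutrophil markers fell (8.99 to 11.99 CPM in WT T3 CCl4, against 17.5 to 292 CPM in WT PBS CCl4), 3 of 6 myofibroblast markers fell (60.3 to 92.6 CPM in WT T3 CCl4, against 67.4 to 183 CPM in WT PBS CCl4), and all 6 Kupffer cell markers rose (576 to 869.5 CPM in WT T3 CCl4, against 154 to 272 CPM in WT PBS CCl4). Hepatocyte markers rose in 6 of 9 cases (99547 to 136024 CPM in WT T3 CCl4, against 57730.2 to 79057 CPM in WT PBS CCl4). The sum of the monocyte-derived macrophage markers overlapped (206 to 288 CPM in WT T3 CCl4, against 228 to 665 CPM in WT PBS CCl4). The part of these cells in the result was not tested. Scaling by library totals alone left 18 calls among the members, 14 higher and 4 lower, with the median of all genes at -0.418. Proc lost its call without WT PBS CCl4 replicate 2 or 3 (highest adjusted p = 0.119). Hrg lost its call without WT PBS CCl4 replicate 1, 2 or 3, or WT T3 CCl4 replicate 1 or 2 (highest adjusted p = 0.0974). Vkorc1 lost its call without WT PBS CCl4 replicate 2 or 3, or WT T3 CCl4 replicate 1, 2, 3 or 4 (highest adjusted p = 0.139).

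In wild-type livers that received T3, CCl4 was followed by no called member. Between WT T3 CCl4 and WT T3 oil livers 0 of 35 were called by edgeR, where 3.4% of the tested genes were called, 1.67% up and 1.74% down. An unadjusted p under 0.05 was reached by 3 members, DESeq2 called 1 and a fit of these groups alone called 2. Serpina10, the protein Z-dependent protease inhibitor, had the smallest adjusted p (log2 fold change 0.78 ± 0.23 SE, adjusted p = 0.0538). Log2 differences ran from -0.47 (F3) to 1.41 (Plat), with a median of 0.068 against -0.0069 over all genes. Of the other pathway genes only Fgl1, a fibrinogen-like hepatocyte protein (1.04 ± 0.25 SE, adjusted p = 0.0126), and Anxa2 (1.43 ± 0.35 SE, adjusted p = 0.0149) were called. Whether the CCl4 response depended on T3 in the wild type was tested as an interaction, the T3 difference in injured minus that in uninjured livers. Of the members 18 were called, 14 higher and 4 lower, where 23.9% of the tested genes were called, 10.8% up and 13.1% down. F7 (1.51 ± 0.31), F9 (1.03 ± 0.23), Hrg (1.48 ± 0.34) and F10 (1.39 ± 0.33) had the smallest adjusted p of the higher ones, and Proz (1.83 ± 0.46) the largest log2 value. Plaur (-3.82 ± 0.74), F13a1 (-3.48 ± 0.79), Plat (-2.61 ± 0.79) and Thbd (-1.91 ± 0.61) were the lower ones. Thbd lost its call without WT PBS CCl4 replicate 2, or WT T3 oil replicate 1 (highest adjusted p = 0.184), Plat without WT PBS CCl4 replicate 2 or WT T3 oil replicate 4 (highest adjusted p = 0.0679), Serpinf2 without WT PBS CCl4 replicate 2 (0.0539) and Kng1 and Serpind1 without WT T3 oil replicate 4 (0.0504 and 0.0532). All 8 monocyte-derived macrophage markers were called lower and 6 of 9 hepatocyte markers higher in this interaction. With library totals alone the split was 9 higher and 6 lower, and without WT PBS CCl4 replicate 2 and KO PBS CCl4 replicate 3 it was 17 higher and 2 lower.

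**Figure D3:**
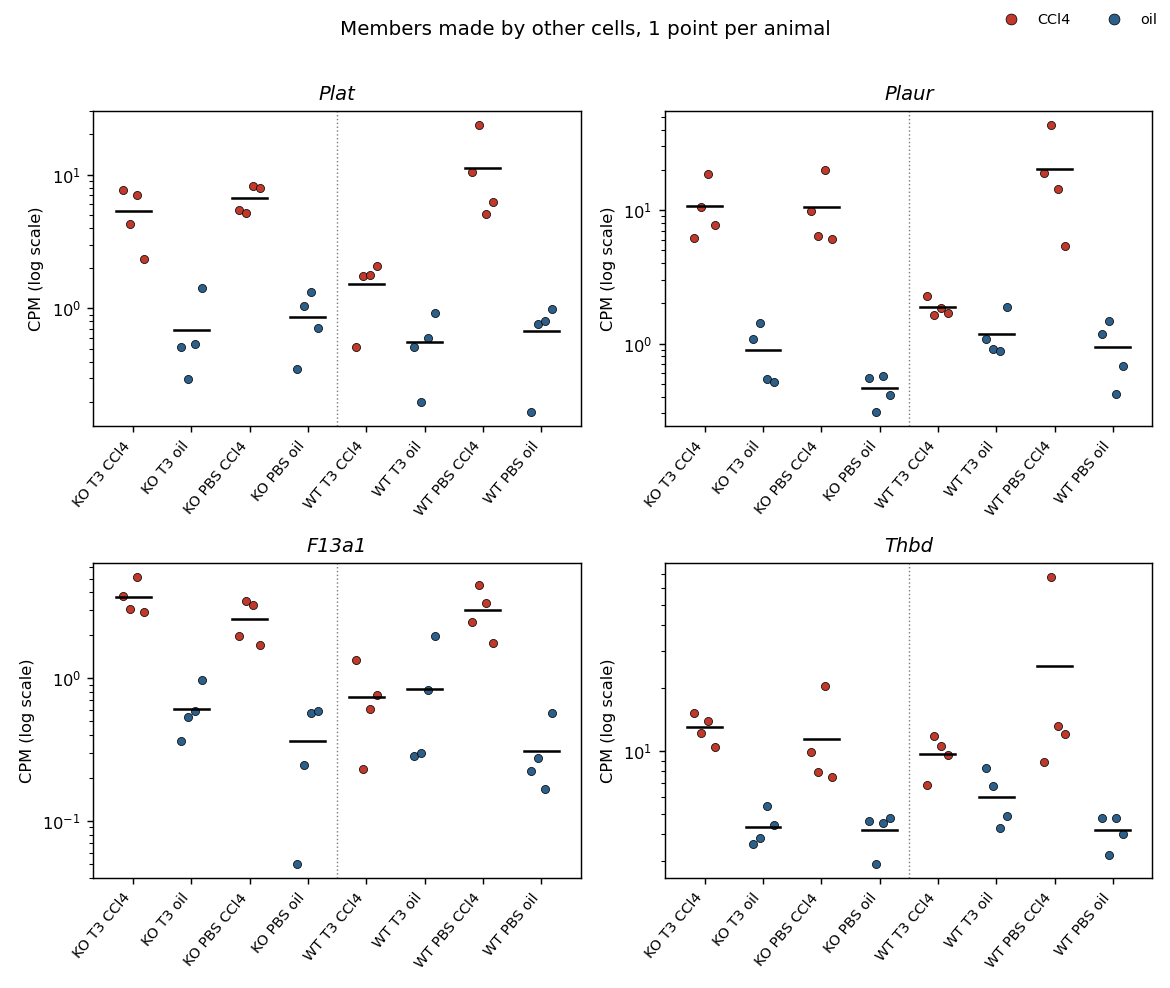
CPM on a log axis of Plat, Plaur, F13a1 and Thbd, which cells other than hepatocytes mainly make, in each of 32 livers, with a bar for the mean of the 4 animals in a group. Plat and Plaur stand high in the CCl4 livers of KO T3, KO PBS and WT PBS mice, and for these 2 genes every WT T3 CCl4 liver lies below every liver of the other 3 CCl4 groups.

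In uninjured wild-type livers the fit of all libraries called few members with T3. Between WT T3 oil and WT PBS oil livers 8 of 35 were called, 6 higher and 2 lower, where 35.3% of the tested genes were called, 19% up and 16.2% down. The contact-phase protease F12 had 685, 838, 756 and 662 CPM in WT T3 oil livers, against 384, 356, 331 and 336 CPM in WT PBS oil livers (log2 fold change 1.06 ± 0.15 SE, adjusted p = 2.81e-06). Tissue factor, F3, had 8.02, 9.66, 7.73 and 7.95 CPM in WT T3 oil livers, against 1.24, 4.28, 2.31 and 2.41 CPM in WT PBS oil livers (log2 fold change 1.70 ± 0.34 SE, adjusted p = 0.000265). Neither overlapped. Cpb2, a carboxypeptidase that slows fibrinolysis, had 495, 593, 572 and 417 CPM in WT T3 oil livers, against 327, 226, 266 and 247 CPM in WT PBS oil livers (log2 fold change 0.96 ± 0.25 SE, adjusted p = 0.00351). Factor XI, F11, which activates factor IX, had 78.6, 108, 66.8 and 84.04 CPM in WT T3 oil livers, against 41.3, 36.9, 61.3 and 35.5 CPM in WT PBS oil livers (log2 fold change 0.94 ± 0.31 SE, adjusted p = 0.0198). All T3 livers exceeded all PBS livers for both.

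The remaining called members moved less. Pros1 had 64.8, 70.3, 71.95 and 74.7 CPM in WT T3 oil livers, against 56.3, 58.6, 50.9 and 53.7 CPM in WT PBS oil livers (0.36 ± 0.13 SE, adjusted p = 0.0319). Ggcx had 103, 109, 106 and 88.6 CPM in WT T3 oil livers, against 80.6, 64.2, 63.4 and 74.00 CPM in WT PBS oil livers (0.53 ± 0.20 SE, adjusted p = 0.0423). Both separated the groups without overlap. Hrg fell to 432, 649, 609 and 455 CPM in WT T3 oil livers, against 1195, 1044, 966 and 646 CPM in WT PBS oil livers (-0.84 ± 0.24 SE, adjusted p = 0.00702), with 1 T3 liver just above the lowest PBS liver. Proc fell to 276, 341, 302 and 315 CPM in WT T3 oil livers, against 495, 553, 439 and 373 CPM in WT PBS oil livers (-0.59 ± 0.20 SE, adjusted p = 0.0231), with no overlap. F11 lost its call without WT PBS oil replicate 2 or 4, or WT T3 oil replicate 2 (highest adjusted p = 0.0669). Pros1 lost its call without WT PBS oil replicate 3 or 4, or WT T3 oil replicate 2, 3 or 4 (highest adjusted p = 0.0928). Ggcx lost its call without WT PBS oil replicate 2, 3 or 4, or WT T3 oil replicate 1, 2 or 3 (highest adjusted p = 0.111). Proc lost its call without WT PBS oil replicate 1 or 2, or WT T3 oil replicate 1 (highest adjusted p = 0.0854). Leaving out WT PBS oil replicate 2 left 5 calls. DESeq2 called 10 members (7 higher, 3 lower) and a fit of these groups alone 12 (6 higher, 6 lower). The fibrinogen chains were not called in the fit of all libraries, though the groups did not overlap in any chain. How many of all tested genes separate in this way was not counted. Fga ran from 2925 to 3862 CPM in WT T3 oil livers, against 4350 to 5517 CPM in WT PBS oil livers. Fgb ran from 3356 to 3758 against 4422 to 5356 CPM, and Fgg from 2242 to 2976 against 3570 to 4819 CPM. The sum of the acute-phase genes lay the other way, at 9263 to 13352 CPM in WT T3 oil livers, against 6863 to 7716 CPM in WT PBS oil livers. Of the other pathway genes 8 of 22 were called, 3 higher and 5 lower, with Fgl1 at 1.17 ± 0.25, the protease inhibitor Pzp at -0.86 ± 0.24, the prothrombinase-like Fgl2 at 0.79 ± 0.22 and Procr at 1.63 ± 0.47 (log2 ± SE). All 6 Kupffer cell markers rose (667 to 1072 CPM in WT T3 oil, against 79.8 to 173 CPM in WT PBS oil), and 7 of 8 monocyte-derived macrophage markers did (177 to 358 CPM in WT T3 oil, against 36.5 to 65.1 CPM in WT PBS oil). The platelet sum did not overlap (10.6 to 17.9 CPM in WT T3 oil, against 4.08 to 6.03 CPM in WT PBS oil), and the cholangiocyte sum did (50.7 to 125 against 47.2 to 164 CPM). Of the hepatocyte markers 3 fell and 1 rose, with no overlap of the sum (94579 to 127095 CPM in WT T3 oil, against 130239 to 185048 CPM in WT PBS oil). Their part was not tested.

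In uninjured KO livers T3 was followed by 3 calls among the members, all higher, where 18.7% of the tested genes were called, 10.6% up and 8.11% down, and none of the 24 hepatocyte members was among them. F3 had 8.31, 7.81, 6.798 and 5.93 CPM in KO T3 oil livers, against 1.61, 3.27, 1.89 and 1.95 CPM in KO PBS oil livers (log2 fold change 1.73 ± 0.35 SE, adjusted p = 0.000765), with no overlap. Vwf, the endothelial carrier of factor VIII, had 4.904, 7.16, 7.44 and 9.57 CPM in KO T3 oil livers, against 4.92, 3.700, 2.07 and 2.84 CPM in KO PBS oil livers (1.10 ± 0.35 SE, adjusted p = 0.0284). Plau had 1.76, 1.36, 1.97 and 0.684 CPM in KO T3 oil livers, against 0.552, 0.432, 0.704 and 0.473 CPM in KO PBS oil livers (1.4 ± 0.44 SE, adjusted p = 0.0254). For Vwf and Plau the groups overlapped at 1 animal, and 1 member was called without KO PBS oil replicate 4 or KO T3 oil replicate 3. Vwf lost its call without KO PBS oil replicate 3 or 4, or KO T3 oil replicate 2, 3 or 4 (highest adjusted p = 0.114). Plau lost its call without KO PBS oil replicate 1, 2 or 4, or KO T3 oil replicate 1 or 3 (highest adjusted p = 0.0912). The fibrinogen chains were not called here either. Fgb ran from 3487 to 4465 CPM in KO T3 oil livers, against 5002.5 to 5247 CPM in KO PBS oil livers. Fga overlapped (2678 to 4968 against 4818 to 5989 CPM). The sum of the acute-phase genes ran from 8252 to 10054 CPM in KO T3 oil livers, against 6719 to 7990 CPM in KO PBS oil livers. Of the other pathway genes the plasminogen receptor Plgrkt (0.84 ± 0.21), Fgl1 (0.75 ± 0.25) and Fgl2 (0.65 ± 0.23) rose. All 6 Kupffer cell markers rose (500.4 to 727 CPM in KO T3 oil, against 96.01 to 138 CPM in KO PBS oil), as did 6 of 8 monocyte-derived macrophage markers (131 to 208 CPM in KO T3 oil, against 39.9 to 61.9 CPM in KO PBS oil). The platelet (5.76 to 10.9 against 4.79 to 6.32 CPM) and cholangiocyte sums (73.7 to 119 against 54.8 to 82.4 CPM) overlapped. Endothelial markers rose in 3 of 10 cases (372 to 557 CPM in KO T3 oil, against 368 to 411 CPM in KO PBS oil) and myofibroblast markers in 4 of 6 (89.4 to 103 CPM in KO T3 oil, against 27.6 to 42.8 CPM in KO PBS oil), and their part was not tested.

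The T3 response of F12 differed between the genotypes, and it was the only member of which this was called in uninjured livers. F12 averaged 505 ± 79.04 CPM in KO T3 oil and 469 ± 51.2 CPM in KO PBS oil livers, a T3 difference of 0.11 ± 0.15, against 735 ± 79.4 CPM in WT T3 oil and 352 ± 24.3 CPM in WT PBS oil livers, a T3 difference of 1.06 ± 0.15 (log2 ± SE). The interaction, KO minus WT, was -0.96 ± 0.21 SE, adjusted p = 0.00332, where 12.2% of the tested genes were called, 5.58% up and 6.64% down, and it stayed below the threshold without any single one of the 16 libraries. Scaled by library totals alone 4 members were called and in a fit of these 4 groups 6. In injured livers the F12 interaction was -1.38 ± 0.21 SE, adjusted p = 4.21e-05. F3, by contrast, had T3 differences of 1.73 ± 0.35 in KO oil and 1.70 ± 0.34 in WT oil livers, and their difference was 0.031 ± 0.48 (adjusted p = 0.982). F11 had T3 differences of 0.82 in KO oil, 1.13 in KO CCl4, 0.94 in WT oil and 1.02 in WT CCl4 livers, of which the first was not called (adjusted p = 0.0663).

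**Figure D4:**
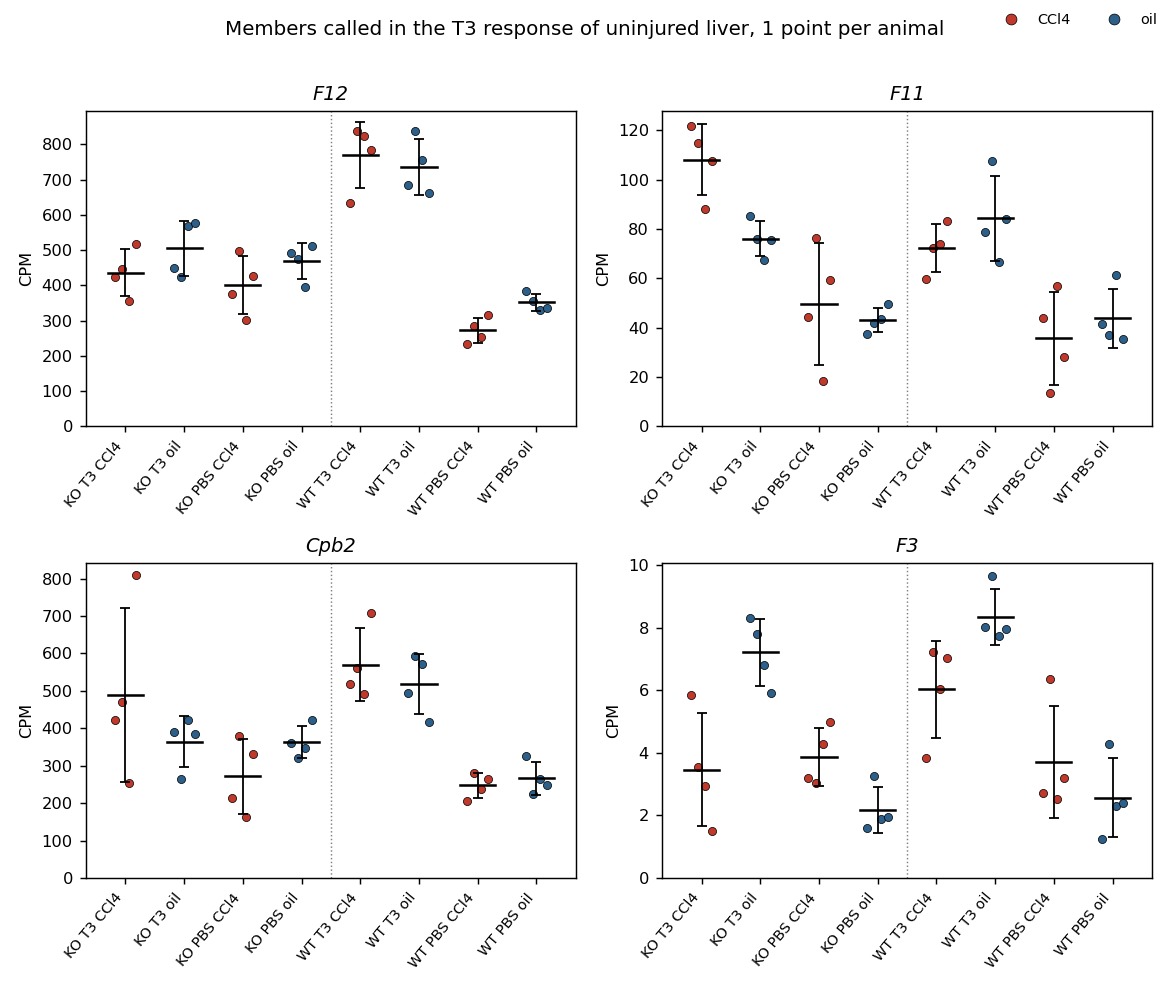
CPM of F12, F11, Cpb2 and F3 in each of 32 livers, with the 8 groups along the x axis, a bar for the mean and whiskers for the SD of 4 animals. F12 stands at 662 to 838 CPM in WT T3 oil livers and above every WT PBS liver, while the KO T3 and KO PBS livers overlap.

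In hypothyroid KO livers, too, CCl4 lowered hepatocyte-made factors and raised the activators. Between KO PBS CCl4 and KO PBS oil livers 19 of 35 were called, 5 higher and 14 lower, where 31.1% of the tested genes were called, 17.8% up and 13.4% down. Plaur had 9.85, 6.36, 19.97 and 6.099 CPM in KO PBS CCl4 livers, against 0.552, 0.308, 0.572 and 0.414 CPM in KO PBS oil livers (log2 fold change 4.48 ± 0.57 SE, adjusted p = 3.53e-06). Plau had 2.15, 3.996, 3.25 and 2.58 CPM in KO PBS CCl4 livers, against 0.552, 0.432, 0.704 and 0.473 CPM in KO PBS oil livers (2.44 ± 0.43 SE, adjusted p = 0.000179). Plat had 5.48, 5.200, 8.23 and 7.997 CPM in KO PBS CCl4 livers, against 0.351, 1.05, 1.32 and 0.709 CPM in KO PBS oil livers (2.96 ± 0.54 SE, adjusted p = 0.000248). None of these overlapped. F13a1 rose by 2.80 ± 0.56 and Thbd by 1.44 ± 0.44 (log2 ± SE), Thbd losing its call without KO PBS CCl4 replicate 3 (adjusted p = 0.109).

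Of the hepatocyte members 13 of 24 fell in hypothyroid KO livers. F7 had 42.9, 62.2, 26.4 and 53.6 CPM in KO PBS CCl4 livers, against 99.1, 86.6, 90.8 and 112 CPM in KO PBS oil livers (log2 fold change -1.07 ± 0.22 SE, adjusted p = 0.000882). Serpinc1 had 1527, 1932, 793 and 1861 CPM in KO PBS CCl4 livers, against 2816, 2555, 2638 and 2719 CPM in KO PBS oil livers (-0.81 ± 0.21 SE, adjusted p = 0.00534). Kng2, the second kininogen gene of the mouse and a close paralogue of Kng1, with which the counting may have split shared reads, had 247, 285, 182 and 290.1 CPM in KO PBS CCl4 livers, against 387, 393, 407 and 383 CPM in KO PBS oil livers (-0.64 ± 0.17 SE, adjusted p = 0.00563). Every injured liver lay below every control, and KO PBS CCl4 replicate 3 was the lowest in each. F9, F10 and F13b had means of 142 ± 29.8, 212 ± 85.2 and 126 ± 45.4 CPM in KO PBS CCl4 livers, against 219 ± 11.5, 384 ± 53.04 and 252 ± 25.7 CPM in KO PBS oil livers (SD, n = 4 each). The other 7 hepatocyte members that fell and Ggcx did so by 0.49 (F2) to 1.03 (Proz). Kng1 lost its call without KO PBS CCl4 replicate 1 or 3, or KO PBS oil replicate 1 (highest adjusted p = 0.0946). Proc lost its call without KO PBS CCl4 replicate 1 or 3, or KO PBS oil replicate 1 or 4 (highest adjusted p = 0.115). F2 lost its call without KO PBS CCl4 replicate 1 or 3, or KO PBS oil replicate 1, 2 or 4 (highest adjusted p = 0.139). Ggcx lost its call without KO PBS CCl4 replicate 1 or 3, or KO PBS oil replicate 4 (highest adjusted p = 0.103). Serpind1 lost its call without KO PBS CCl4 replicate 1 or 3, or KO PBS oil replicate 1, 2, 3 or 4 (highest adjusted p = 0.166). Hrg lost its call without KO PBS CCl4 replicate 3 (adjusted p = 0.0682). Without KO PBS CCl4 replicate 3 the called members numbered 12, in a fit of these 2 groups 9 (5 higher, 4 lower), and with library totals alone 15 (6 higher, 9 lower). Of the other pathway genes 7 of 22 were called, 5 higher and 2 lower, among them Anxa2 (3.41 ± 0.37), Thbs1 (3.30 ± 0.50) and Procr (2.17 ± 0.46). Beside the members, 7 of 8 monocyte-derived macrophage markers rose (243 to 311 CPM in KO PBS CCl4, against 39.9 to 61.9 CPM in KO PBS oil). All 6 myofibroblast markers rose (91.9 to 200.2 CPM in KO PBS CCl4, against 27.6 to 42.8 CPM in KO PBS oil). Of the hepatocyte markers 5 of 9 fell (63188 to 129833 CPM in KO PBS CCl4, against 145460.0 to 160979 CPM in KO PBS oil). The cholangiocyte sum did not overlap (83.2 to 164 CPM in KO PBS CCl4, against 54.8 to 82.4 CPM in KO PBS oil), and the platelet sum did (6.05 to 10.1 against 4.79 to 6.32 CPM). The part of these cells was not tested.

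The difference between the genotypes in the CCl4 response of hypothyroid livers (CCl4 in KO PBS minus CCl4 in WT PBS) was called for 0 members by edgeR, where 0.0192% of the tested genes were called, 0% up and 0.0192% down, with 0 members at an unadjusted p under 0.05 and 0 by DESeq2. Its estimates ran from -1.16 ± 0.61 (Thbd) to 0.87 ± 0.71 (Klkb1).

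In KO livers that received T3, CCl4 raised the fibrinogen chains as well as the activators. Between KO T3 CCl4 and KO T3 oil livers 19 of 35 members were called, 10 higher and 9 lower, where 39.6% of the tested genes were called, 19.7% up and 19.8% down. Fga had 10829, 11535, 7041 and 17504 CPM in KO T3 CCl4 livers, against 4286, 2678, 4659 and 4968 CPM in KO T3 oil livers (log2 fold change 1.5 ± 0.34 SE, adjusted p = 0.00121). Fgb had 10103, 11364, 6742 and 16583 CPM in KO T3 CCl4 livers, against 4094, 3487, 4465 and 4332 CPM in KO T3 oil livers (log2 fold change 1.45 ± 0.30 SE, adjusted p = 0.000443). Every injured liver lay above every control for Fga, Fgb and Fgg (1.19 ± 0.34 SE, adjusted p = 0.00756), with replicate 4 the highest and replicate 3 the lowest of the injured ones. Serpina10 had 331, 412, 272 and 640.4 CPM in KO T3 CCl4 livers, against 206, 159.7, 222 and 186 CPM in KO T3 oil livers (1.10 ± 0.23 SE, adjusted p = 0.000563), again with no overlap.

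The activators and F13a1 were high in these livers. Plaur had 6.12, 10.5, 18.5 and 7.77 CPM in KO T3 CCl4 livers, against 1.08, 1.42, 0.542 and 0.513 CPM in KO T3 oil livers (log2 fold change 3.60 ± 0.53 SE, adjusted p = 1.4e-05). Plat had 7.66, 4.31, 7.03 and 2.34 CPM in KO T3 CCl4 livers, against 0.516, 0.296, 0.542 and 1.42 CPM in KO T3 oil livers (log2 fold change 2.95 ± 0.55 SE, adjusted p = 0.000174). F13a1 had 3.79, 3.06, 5.15 and 2.91 CPM in KO T3 CCl4 livers, against 0.361, 0.532, 0.591 and 0.969 CPM in KO T3 oil livers (log2 fold change 2.60 ± 0.53 SE, adjusted p = 0.000439). No control reached an injured liver in any of the 3. Pros1, Plau and Thbd rose by 0.57, 1.4 and 1.58 on the log2 scale.

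Against these rises, 9 members fell in KO T3 livers after CCl4. Serpinc1 had 1473, 1335, 1076 and 1557 CPM in KO T3 CCl4 livers, against 2504, 2547, 2476 and 2418 CPM in KO T3 oil livers (log2 fold change -0.87 ± 0.21 SE, adjusted p = 0.00199). Proc had 318, 281, 235 and 319 CPM in KO T3 CCl4 livers, against 461, 589, 481 and 481 CPM in KO T3 oil livers (-0.80 ± 0.20 SE, adjusted p = 0.0028). Klkb1 had 79.1, 40.7, 26.1 and 40.4 CPM in KO T3 CCl4 livers, against 194, 170.01, 176 and 163 CPM in KO T3 oil livers (-1.92 ± 0.52 SE, adjusted p = 0.00462). The injured livers lay below the controls for all 3. Vkorc1 had 10.8, 9.32, 7.699 and 13.9 CPM in KO T3 CCl4 livers, against 16.7, 20.6, 20.8 and 19.9 CPM in KO T3 oil livers (-0.91 ± 0.24 SE, adjusted p = 0.00418). F13b had 127, 101, 73.00 and 104 CPM in KO T3 CCl4 livers, against 253, 129, 222 and 216 CPM in KO T3 oil livers (-1.02 ± 0.27 SE, adjusted p = 0.00425). F7 had 73.3, 63.8, 44.3 and 85.3 CPM in KO T3 CCl4 livers, against 107, 100.1, 119.8 and 114 CPM in KO T3 oil livers (-0.73 ± 0.22 SE, adjusted p = 0.0104). These 3 separated as well. F10, F3 and Proz fell by 0.73, 1.05 and 0.87. F7 lost its call without KO T3 CCl4 replicate 3 (adjusted p = 0.0562). F10 lost its call without KO T3 CCl4 replicate 3 (adjusted p = 0.0698). F3 lost its call without KO T3 CCl4 replicate 4 (adjusted p = 0.0614). Proz lost its call without KO T3 CCl4 replicate 2 or 3, or KO T3 oil replicate 1, 2, 3 or 4 (highest adjusted p = 0.121). The other pathway genes were called in 12 of 22 cases, 10 higher and 2 lower, with Thbs1 at 4.29 ± 0.51, Anxa2 at 3.05 ± 0.36, Fgl1 at 1.66 ± 0.25 and Adamts13, the protease that trims von Willebrand factor, at -1.21 ± 0.22 (log2 ± SE).

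All 11 acute-phase genes rose in the same comparison, their sum running from 23539 to 87633 CPM in KO T3 CCl4 livers, against 8252 to 10054 CPM in KO T3 oil livers. The sum did not overlap in wild-type livers either (17708 to 31314 CPM in WT T3 CCl4, against 9263 to 13352 CPM in WT T3 oil; 13122 to 32866 CPM in WT PBS CCl4, against 6863 to 7716 CPM in WT PBS oil), where 4 of the 11 rose on T3 and 9 rose and 1 fell on PBS, and the fibrinogen chains were not called. In KO PBS livers the acute-phase sum did overlap (6467 to 15121 CPM in KO PBS CCl4, against 6719 to 7990 CPM in KO PBS oil). In KO T3 livers all 4 tested neutrophil markers rose (22.9 to 49.7 CPM in KO T3 CCl4, against 5.01 to 12.8 CPM in KO T3 oil), 4 of 8 monocyte-derived macrophage markers rose (245 to 342 CPM in KO T3 CCl4, against 131 to 208 CPM in KO T3 oil) and 4 of 9 hepatocyte markers fell while 1 rose (105926 to 135571 CPM in KO T3 CCl4, against 147986 to 186282 CPM in KO T3 oil). The cholangiocyte (116 to 245 against 73.7 to 119 CPM) and platelet sums (5.56 to 8.48 against 5.76 to 10.9 CPM) overlapped. What part these cells had in the members' values was not tested. The difference between the genotypes in the CCl4 response on T3, KO minus WT, was called for 4 members, Plaur (2.95 ± 0.74), F13a1 (2.80 ± 0.76), Pros1 (0.55 ± 0.18) and Proc (-0.88 ± 0.29), where 13.5% of the tested genes were called, 6.2% up and 7.26% down. DESeq2 called 8 of the members (3 higher, 5 lower), a fit of these 4 groups 13 and a test with no filter 2, and leaving out 1 library gave 1 to 6. F13a1 lost its call without WT T3 oil replicate 4 (adjusted p = 0.0899), Pros1 without any of 13 and Proc without any of 12 of the 16 libraries (highest adjusted p = 0.108 and 0.0911), while Plaur held without each of them. With library totals alone the split was 4 higher and 0 lower. Fgb gave 1.01 ± 0.41 SE, adjusted p = 0.0967.

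Of the 4 comparisons between the genotypes, the one in injured livers with T3 called the most members, as it did over all tested genes. Between KO T3 CCl4 and WT T3 CCl4 livers 11 of 35 members were called, 7 higher and 4 lower, where 22.9% of the tested genes were called, 10.4% up and 12.5% down. All 5 genes of fibrin formation were among them. Fga had 10829, 11535, 7041 and 17504 CPM in KO T3 CCl4 livers, against 7882, 5959.9, 3683 and 2768 CPM in WT T3 CCl4 livers (log2 fold change 1.21 ± 0.34 SE, adjusted p = 0.0104). Fgb had 10103, 11364, 6742 and 16583 CPM in KO T3 CCl4 livers, against 6911, 5289, 3725 and 3533 CPM in WT T3 CCl4 livers (log2 fold change 1.20 ± 0.30 SE, adjusted p = 0.00366). Fgg had 7468, 8068, 4691 and 12724 CPM in KO T3 CCl4 livers, against 5789.9, 4251, 2862 and 2227 CPM in WT T3 CCl4 livers (log2 fold change 1.12 ± 0.34 SE, adjusted p = 0.0182). In each chain the lowest KO liver, replicate 3, lay below the highest WT liver, replicate 1. The Fga call was lost without KO T3 CCl4 replicate 4 or WT T3 CCl4 replicate 4 (adjusted p = 0.0579 and 0.0517) and the Fgg call without these or WT T3 CCl4 replicate 3 (highest adjusted p = 0.1), while the Fgb call held without any single one of the 8 libraries.

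**Figure D5:**
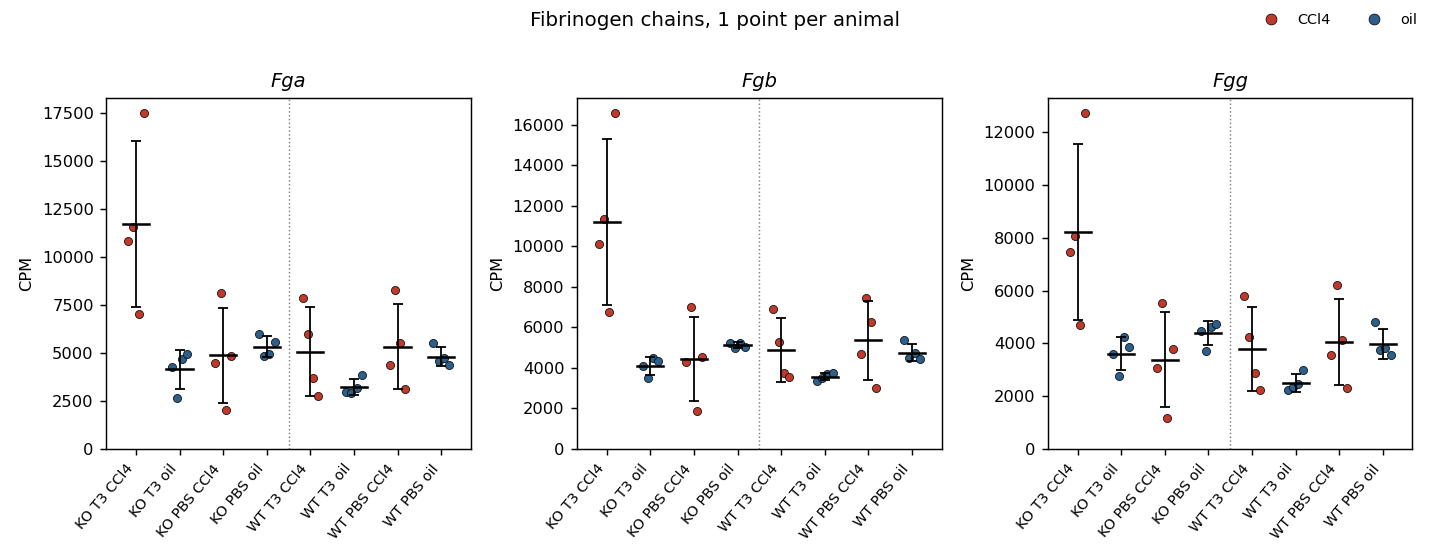
CPM of Fga, Fgb and Fgg in each of 32 livers, with the 8 groups along the x axis, a bar for the mean and whiskers for the SD of 4 animals. The KO T3 CCl4 mean of Fga, at 11727 CPM, is the highest of the 8 groups, with 1 liver near 17504 CPM and 1 near 7041 CPM.

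F13a1 and the activators were higher in the KO. F13a1 had 3.79, 3.06, 5.15 and 2.91 CPM in KO T3 CCl4 livers, against 1.35, 0.233, 0.605 and 0.763 CPM in WT T3 CCl4 livers (log2 fold change 2.32 ± 0.52 SE, adjusted p = 0.00161). Plaur had 6.12, 10.5, 18.5 and 7.77 CPM in KO T3 CCl4 livers, against 2.28, 1.63, 1.86 and 1.69 CPM in WT T3 CCl4 livers (log2 fold change 2.52 ± 0.49 SE, adjusted p = 0.000423). Plat had 7.66, 4.31, 7.03 and 2.34 CPM in KO T3 CCl4 livers, against 0.513, 1.74, 1.77 and 2.07 CPM in WT T3 CCl4 livers (log2 fold change 1.82 ± 0.50 SE, adjusted p = 0.00921). None of the 3 overlapped. Plau was higher by 1.24 ± 0.38 (adjusted p = 0.0193), with overlap.

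F12 had 425, 446, 355 and 518 CPM in KO T3 CCl4 livers, against 633, 839, 824 and 784 CPM in WT T3 CCl4 livers (log2 fold change -0.82 ± 0.15 SE, adjusted p = 0.000273). Serpinc1 had 1473, 1335, 1076 and 1557 CPM in KO T3 CCl4 livers, against 2516, 2194, 2224 and 2723 CPM in WT T3 CCl4 livers (log2 fold change -0.83 ± 0.21 SE, adjusted p = 0.00496). Both separated the genotypes without overlap. F13b had 127, 101, 73.00 and 104 CPM in KO T3 CCl4 livers, against 206, 184, 202 and 193 CPM in WT T3 CCl4 livers (-0.96 ± 0.27 SE, adjusted p = 0.011). Ggcx had 78.7, 70.5, 54.5 and 74.95 CPM in KO T3 CCl4 livers, against 102, 106, 108 and 106 CPM in WT T3 CCl4 livers (-0.60 ± 0.20 SE, adjusted p = 0.0311). No KO liver reached a WT liver for either gene. F13b lost its call without KO T3 CCl4 replicate 3 (adjusted p = 0.0521). Ggcx lost its call without KO T3 CCl4 replicate 2 or 3, or WT T3 CCl4 replicate 2, 3 or 4 (highest adjusted p = 0.121). Plau lost its call without KO T3 CCl4 replicate 1 or 3, or WT T3 CCl4 replicate 4 (highest adjusted p = 0.0782). Without WT T3 CCl4 replicate 4 the called members numbered 7, and in a fit of these 2 groups 16, 8 higher and 8 lower.

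Of the 22 other pathway genes 10 were called between the genotypes, 9 higher and 1 lower. Thbs1 was higher by 3.12 ± 0.47, Anxa2 by 2.04 ± 0.35 and Pzp by 1.31 ± 0.24 (log2 ± SE). Of the acute-phase genes 8 of 11 were higher (23539 to 87633 CPM in KO T3 CCl4, against 17708 to 31314 CPM in WT T3 CCl4), of the myofibroblast markers 4 of 6 (91.8 to 229 CPM in KO T3 CCl4, against 60.3 to 92.6 CPM in WT T3 CCl4) and of the monocyte-derived macrophage markers 2 of 8 (245 to 342 CPM in KO T3 CCl4, against 206 to 288 CPM in WT T3 CCl4), while 3 of 6 Kupffer cell (411 to 634 CPM in KO T3 CCl4, against 576 to 869.5 CPM in WT T3 CCl4) and 2 of 9 hepatocyte markers were lower. Of the 4 tested neutrophil markers 1 was called higher, and the summed level did not overlap (22.9 to 49.7 CPM in KO T3 CCl4, against 8.99 to 11.99 CPM in WT T3 CCl4). Their part in the members' values was not tested.

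Whether the T3 response of injured livers differed between the genotypes was tested directly, KO minus WT. Of the members 15 were called, 6 higher and 9 lower, where 22.7% of the tested genes were called, 10.3% up and 12.4% down. The higher ones were Plaur (3.47 ± 0.66), Plat (2.57 ± 0.68), F13a1 (2.54 ± 0.69), Fgb (1.47 ± 0.41), Fgg (1.38 ± 0.48) and Fga (1.34 ± 0.48). The lower ones were Klkb1 (-2.37 ± 0.72), F13b (-1.74 ± 0.38), Proz (-1.57 ± 0.46), Serpinc1 (-1.38 ± 0.30), F12 (-1.38 ± 0.21), Ggcx (-1.08 ± 0.29), Plg (-1.01 ± 0.34), F10 (-0.93 ± 0.32) and F9 (-0.75 ± 0.23). F9 lost its call without KO PBS CCl4 replicate 2, KO T3 CCl4 replicate 3, or WT PBS CCl4 replicate 2 (highest adjusted p = 0.0598). Plg lost its call without KO PBS CCl4 replicate 2 or 4, KO T3 CCl4 replicate 3, WT PBS CCl4 replicate 1, 2 or 3, or WT T3 CCl4 replicate 2 (highest adjusted p = 0.111). Fga lost its call without KO PBS CCl4 replicate 1, 3 or 4, KO T3 CCl4 replicate 1, 2 or 4, WT PBS CCl4 replicate 2 or 3, or WT T3 CCl4 replicate 2, 3 or 4 (highest adjusted p = 0.122). Fgg lost its call without KO PBS CCl4 replicate 1 or 4, KO T3 CCl4 replicate 2 or 4, WT PBS CCl4 replicate 2 or 3, or WT T3 CCl4 replicate 2, 3 or 4 (highest adjusted p = 0.116). F10 lost its call without KO PBS CCl4 replicate 1, 2 or 4, KO T3 CCl4 replicate 2 or 3, WT PBS CCl4 replicate 1, 2 or 3, or WT T3 CCl4 replicate 1 or 2 (highest adjusted p = 0.113). Of the markers, 10 of 11 acute-phase genes and all 4 tested neutrophil markers were called higher and 5 of 9 hepatocyte markers lower, and of the other pathway genes 10 were called higher, among them Thbs1 (3.61 ± 0.63), Procr (2.93 ± 0.58) and Anxa2 (2.33 ± 0.48), and 2 lower. A fit of these 4 groups called 6 members, and with library totals alone the split was 8 higher and 6 lower. Without both KO PBS CCl4 replicate 3 and WT PBS CCl4 replicate 2 the split was 5 higher and 16 lower, and Fga (adjusted p = 0.186) and Fgg (adjusted p = 0.149) lost their calls.

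In injured KO livers themselves T3 raised 7 members and lowered 0, where 2.54% of the tested genes were called, 1.77% up and 0.769% down. Pros1 had 77.6, 69.5, 50.6 and 84.3 CPM in KO T3 CCl4 livers, against 41.9, 52.6, 37.03 and 40.6 CPM in KO PBS CCl4 livers (log2 fold change 0.71 ± 0.13 SE, adjusted p = 0.00234). Serpina10 had 331, 412, 272 and 640.4 CPM in KO T3 CCl4 livers, against 192, 295, 108 and 199 CPM in KO PBS CCl4 livers (1.06 ± 0.23 SE, adjusted p = 0.0108). Both overlapped at their ends. Kng2 had 374, 388, 303 and 524 CPM in KO T3 CCl4 livers, against 247, 285, 182 and 290.1 CPM in KO PBS CCl4 livers (0.66 ± 0.17 SE, adjusted p = 0.03), without overlap. Fgb had 10103, 11364, 6742 and 16583 CPM in KO T3 CCl4 livers, against 4309, 6979, 1896 and 4544 CPM in KO PBS CCl4 livers (1.34 ± 0.30 SE, adjusted p = 0.0124). Fga had 10829, 11535, 7041 and 17504 CPM in KO T3 CCl4 livers, against 4466, 8111, 2049 and 4862 CPM in KO PBS CCl4 livers (1.27 ± 0.34 SE, adjusted p = 0.0408), and Fgg had 7468, 8068, 4691 and 12724 CPM in KO T3 CCl4 livers, against 3077, 5536, 1159 and 3780.3 CPM in KO PBS CCl4 livers (1.28 ± 0.35 SE, adjusted p = 0.0414). In each chain the highest KO PBS CCl4 liver, replicate 2, exceeded the lowest KO T3 CCl4 liver. F11 stood at the threshold (1.13 ± 0.31 SE, adjusted p = 0.0496).

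Of these 7 calls only that of Pros1 held without each single library. Serpina10 lost its call without KO T3 CCl4 replicate 4 (adjusted p = 0.0842). Fgb lost its call without KO T3 CCl4 replicate 4 (adjusted p = 0.0774). Kng2 lost its call without KO PBS CCl4 replicate 1 or 3, or KO T3 CCl4 replicate 2 or 4 (highest adjusted p = 0.158). Fga and Fgg lost their calls without KO PBS CCl4 replicate 1, 3 or 4 or KO T3 CCl4 replicate 1, 2 or 4 (highest adjusted p = 0.172 and 0.184). F11 held only without KO PBS CCl4 replicate 2 (highest adjusted p = 0.133 without another). Without KO T3 CCl4 replicate 4 only 1 member was called, without KO T3 CCl4 replicate 1 or 2 the calls numbered 4 and 3, without KO PBS CCl4 replicate 1, 3 or 4 they numbered 3, 3 and 4, and a fit of these 2 groups called 0 members and 86 genes in all. All 11 acute-phase genes rose here too (23539 to 87633 CPM in KO T3 CCl4, against 6467 to 15121 CPM in KO PBS CCl4), and of the other pathway genes Fgl1 (1.92 ± 0.25), the contact-phase inhibitor Serping1 (0.99 ± 0.19) and Pzp (1.01 ± 0.24) rose. Of the 6 Kupffer cell markers 2 rose (411 to 634 CPM in KO T3 CCl4, against 155 to 352 CPM in KO PBS CCl4), and of the 8 monocyte-derived macrophage, 6 myofibroblast and 4 neutrophil markers 0 were called. The part of these cells in the members' values was not tested. The T3 response of injured minus uninjured KO livers was called for 4 members, Pros1 (0.80 ± 0.18), Fgb (1.66 ± 0.41), Kng2 (0.88 ± 0.24) and F3 (-1.88 ± 0.48), where 3.71% of the tested genes were called, 1.15% up and 2.56% down, with 1 to 7 calls when 1 library was left out. Fgb lost its call without KO T3 CCl4 replicate 4 (adjusted p = 0.0683). F3 lost its call without KO PBS CCl4 replicate 4, KO PBS oil replicate 1 or 3, or KO T3 CCl4 replicate 3 or 4 (highest adjusted p = 0.0682). Kng2 lost its call without KO PBS CCl4 replicate 3, KO PBS oil replicate 1, 2 or 3, KO T3 CCl4 replicate 2 or 4, or KO T3 oil replicate 2 or 4 (highest adjusted p = 0.104).

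Without T3, few members were called between the genotypes. Between KO PBS oil and WT PBS oil livers edgeR called 0 members, where 0.538% of the tested genes were called, 0.404% up and 0.135% down, with 1 member at an unadjusted p under 0.05 and 0 by DESeq2. Differences ran from -0.97 ± 0.63 (Plaur) to 0.45 ± 0.25 (Cpb2). Between KO PBS CCl4 and WT PBS CCl4 livers F12 alone was called, where 2.25% of the tested genes were called, 1.21% up and 1.04% down. It had 376, 497, 302 and 426 CPM in KO PBS CCl4 livers, against 234, 283, 254 and 315 CPM in WT PBS CCl4 livers (log2 fold change 0.56 ± 0.15 SE, adjusted p = 0.0464), with overlap. That count moved with single libraries, to 11 members without KO PBS CCl4 replicate 3, to 10 without WT PBS CCl4 replicate 4 and to 0 without any one of the other 6 (highest adjusted p of F12 = 0.179). Procr was lower (-1.54 ± 0.40), and of the markers 3 of 4 neutrophil (10.8 to 22.9 CPM in KO PBS CCl4, against 17.5 to 292 CPM in WT PBS CCl4) and 4 of 11 acute-phase genes were lower, their part not tested.

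With T3 in uninjured livers 4 members differed between the genotypes, 2 higher and 2 lower, where 16.3% of the tested genes were called, 7.14% up and 9.21% down. Pros1 had 54.7, 41.5, 49.01 and 44.5 CPM in KO T3 oil livers, against 64.8, 70.3, 71.95 and 74.7 CPM in WT T3 oil livers (log2 fold change -0.57 ± 0.13 SE, adjusted p = 0.00292). F12 had 449.7, 425, 569.5 and 576 CPM in KO T3 oil livers, against 685, 838, 756 and 662 CPM in WT T3 oil livers (log2 fold change -0.54 ± 0.15 SE, adjusted p = 0.0136). Neither overlapped. Hrg had 968, 817, 1081 and 985 CPM in KO T3 oil livers, against 432, 649, 609 and 455 CPM in WT T3 oil livers (0.84 ± 0.24 SE, adjusted p = 0.0156). Proc had 461, 589, 481 and 481 CPM in KO T3 oil livers, against 276, 341, 302 and 315 CPM in WT T3 oil livers (0.71 ± 0.20 SE, adjusted p = 0.0161). All KO livers exceeded all WT livers for Hrg and Proc. F12 lost its call without KO T3 oil replicate 2 (adjusted p = 0.0568). Hrg lost its call without WT T3 oil replicate 1 or 4 (highest adjusted p = 0.0652). Proc lost its call without KO T3 oil replicate 2, or WT T3 oil replicate 1 (highest adjusted p = 0.0636). Without KO T3 oil replicate 2 or WT T3 oil replicate 1 only 2 members were called, and a fit of these 2 groups called 8. Of the other pathway genes Gas6, a vitamin K-dependent ligand (1.02 ± 0.28), and Serping1 (0.64 ± 0.19) were higher. Of the hepatocyte markers 2 were higher and 1 lower. Their sum did not overlap (147986 to 186282 CPM in KO T3 oil, against 94579 to 127095 CPM in WT T3 oil), and their part was not tested.

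The ratios between the fibrinogen chains varied less than their sum. Over the 32 libraries Fga over Fgb per kb ran from 0.972 to 1.47 and Fgg over Fgb from 1.11 to 1.72. Their summed level ran from 18474 to 46811 CPM in KO T3 CCl4 livers, 5104 to 20626 CPM in KO PBS CCl4 livers, 8527 to 20582 CPM in WT T3 CCl4 livers and 8429.8 to 21920.4 CPM in WT PBS CCl4 livers. In oil livers it ran from 8912 to 13351 CPM in KO T3, 13534 to 15715 in KO PBS, 8574 to 10596 in WT T3 and 12341 to 15691 in WT PBS. The chains made up 65.6 to 73.5% of the CPM of all 35 members in KO T3 CCl4 livers, 47.4 to 59.3% in KO PBS CCl4, 32.7 to 55.1% in WT T3 CCl4 and 44.4 to 74.3% in WT PBS CCl4 livers. The highest share of the 32 livers was in WT PBS CCl4 replicate 2, which stood apart over all genes. The other livers of that group were at 44.4 to 65.5%.

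Other members also lie side by side, and neighbours did not always move together. F7, F10 and Proz are adjacent on chromosome 8, with 1.5 kb and 4.2 kb between them, and all 3 fell with CCl4 in WT PBS, KO PBS and KO T3 livers. F11 and Klkb1, 4.7 kb apart on the same chromosome, gave 0.51 ± 0.31 SE, adjusted p = 0.198 and -1.92 ± 0.52 SE, adjusted p = 0.00462 with CCl4 in KO T3 livers, the first not called. Hrg, Kng2 and Kng1 are adjacent on chromosome 16, with 24.2 kb and 28.4 kb between them. Hrg fell with T3 in WT oil livers, where Kng1 and Kng2 gave -0.48 ± 0.19 and 0.012 ± 0.17 and were not called.

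Tfpi and F8 were called in none of the 12 differences. Tfpi ran from 5.43 to 11.2 CPM in KO T3 CCl4 livers, against 5.92 to 10.3 CPM in WT T3 CCl4 livers, and its log2 differences lay between -0.14 and 0.11. F8, the factor VIII cofactor, gave its largest difference with CCl4 in WT PBS livers (-0.59 ± 0.28 SE, adjusted p = 0.0831). Fundc2 overlaps F8 on the opposite strand and held 90.0% as many counts, and since the strand setting of the counting is not given in the sources used here, F8 is uncertain.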

How the data were processed

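Polyadenylated RNA of 32 mouse livers was sequenced, and the authors deposited 1 table of raw read counts per gene, which are whole numbers with no normalization. Per the submitters' processing notes the build was GRCm38 and the tools included STAR 2.7.9a, cutadapt, Trim Galore and FastQC 0.11.5. The counter, the strand setting and the annotation of the counting were not given in the sources used here. Per the labels' protocols libraries were made with the TruSeq RNA kit v2 or the TruSeq Stranded mRNA kit, and no library is tied to either, so a kit effect could not be tested. Of 52636 gene IDs 52489 matched GENCODE vM21, which gave symbols, coordinates and exon lengths, and the 147 others held at most 0.0056% of the counts of a library.

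Genes were filtered with filterByExpr (minimum count 10, minimum total 15), which kept 15599 genes and at least 99.5% of the counts of every library, scaled with TMM factors and tested with edgeR 4.0.16 (quasi-likelihood F test, R 4.3.3, limma 3.58.1) in 1 fit with 8 group means, so that all groups share 1 estimate of the spread. The 12 differences and 6 interactions were each adjusted over all genes by Benjamini-Hochberg at 0.05, with no minimum fold. SEs were derived from the fold change and its F statistic. Levels per kb were divided by the union of exons, and by the longest transcript where stated. Promoter windows came from a RefSeq table of GRCm38.p6. On simulated counts with changed genes, 61% of the 100 genes with a log2 change of 1 and 96% of those with a log2 change of 2 were recovered for T3 in WT CCl4, and 34% and 84% for T3 by genotype in CCl4, out of 15357 genes. Only these genes were changed, in the WT T3 CCl4 libraries alone, a far smaller share than the 41.7% called in the data for T3 in WT CCl4. An adjusted p depends on that share, so the percentages do not give the recovery of the real tests.

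The members and gene lists were chosen with earlier results of these data known. Values per animal were given for up to 6 called members in each direction with the smallest adjusted p per comparison, and up to 4 called other genes of the pathway were named, some of which are counted but not reported by name here. Alternatives were DESeq2 size factors, library totals alone, no filter, the DESeq2 1.42.0 test, only the groups compared, the replicate number as a block, leaving out each library in turn, and leaving out both libraries that stand apart. Of the other pathway genes Serpinb2, Serpina5, A2m, F2rl2 and F2rl3 did not pass the filter.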

Additional observations from a re-analysis of the deposited data

Results flagged for a closer look

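In 280 groups of 4 livers, 13 held a liver whose gap to its nearest neighbour, as a share of the group's range, exceeded Dixon's 95% critical value, where chance gives about 1 in 20. Kng2 was 483 CPM in WT PBS oil replicate 2, with the other 3 livers at 374 to 390.4 CPM. Vwf was 7.88 CPM in WT PBS CCl4 replicate 2, with the other 3 livers at 2.63 to 3.502 CPM. F3 was 9.66 CPM in WT T3 oil replicate 2, with the other 3 livers at 7.73 to 8.02 CPM. F7 was 87.2 CPM in WT T3 CCl4 replicate 1, with the other 3 livers at 76.7 to 78.4 CPM. F2 was 1554 CPM in KO T3 oil replicate 2, with the other 3 livers at 2061 to 2142 CPM. Serpind1 was 623 CPM in WT T3 CCl4 replicate 4, with the other 3 livers at 563 to 572 CPM. Proc was 589 CPM in KO T3 oil replicate 2, with the other 3 livers at 461 to 481 CPM. Thbd was 67.9 CPM in WT PBS CCl4 replicate 2, with the other 3 livers at 8.82 to 13.1 CPM. Thbd was 2.899 CPM in KO PBS oil replicate 2, with the other 3 livers at 4.53 to 4.79 CPM. Plg was 1922 CPM in WT PBS oil replicate 4, with the other 3 livers at 2479 to 2574 CPM. Plg was 1772 CPM in KO T3 oil replicate 2, with the other 3 livers at 2762 to 2787 CPM. Plau was 1.33 CPM in WT PBS CCl4 replicate 4, with the other 3 livers at 2.68 to 2.77 CPM. Serpinf2 was 844 CPM in WT PBS oil replicate 1, with the other 3 livers at 737 to 754 CPM. Of the 13, 3 were WT PBS CCl4 livers, 2 of them replicate 2, which also stood apart over all genes, and 3 were KO T3 oil replicate 2.

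Effects that differed between groups by the interaction test, edgeR's adjusted p below 0.05, are the following, as differences of log2 fold changes. The T3 effect in KO minus WT oil livers was F12 -0.96. The T3 effect in KO minus WT CCl4 livers was F12 -1.38, Klkb1 -2.37, F9 -0.75, F10 -0.93, Fga 1.34, Fgb 1.47, Fgg 1.38, F13a1 2.54, F13b -1.74, Serpinc1 -1.38, Proz -1.57, Plg -1.01, Plat 2.57, Plaur 3.47 and Ggcx -1.08. The CCl4 effect in KO T3 minus WT T3 livers was F13a1 2.80, Proc -0.88, Pros1 0.55 and Plaur 2.95. The T3 effect in CCl4 minus oil livers of the WT was Kng1 0.88, F9 1.03, F7 1.51, F10 1.39, F2 0.79, F13a1 -3.48, F13b 1.36, Serpinc1 1.19, Serpind1 1.5, Proz 1.83, Proc 1.16, Thbd -1.91, Plg 1.31, Plat -2.61, Plaur -3.82, Serpinf2 1.11, Hrg 1.48 and Ggcx 1.00. The T3 effect in CCl4 minus oil livers of the KO was Kng2 0.88, F3 -1.88, Fgb 1.66 and Pros1 0.80. The called ones that single libraries lose are named with the comparisons above.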

How the results depend on the processing

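Of 161 calls of a member in a comparison, 89 were kept under every alternative run and 72 were lost under at least 1. DESeq2 size factors lost 2 of the 161, the DESeq2 test 0, library totals alone 24, no filter 23, the fit of only the groups compared 40 and the replicate block 3, and leaving out both libraries that stand apart lost 11 of the 111 it touches. The 1 reversal was F12 with CCl4 in WT PBS, at 0.021 on the log2 scale with library totals alone.

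Counts of called members moved by over 1.5 times as follows. With only the groups compared they were 13 for CCl4 by genotype in T3 (4 in the fit of all libraries), 9 for CCl4 in KO PBS (19), 2 for CCl4 in WT T3 (0), 0 for KO in PBS CCl4 (1), 8 for KO in T3 oil (4), 1 for T3 by CCl4 in KO (4), 6 for T3 by genotype in CCl4 (15), 6 for T3 by genotype in oil (1) and 0 for T3 in KO CCl4 (7). DESeq2 gave 8 for CCl4 by genotype in T3 and 1 for CCl4 in WT T3. Without the filter 2 were called for CCl4 by genotype in T3. Without both libraries that stand apart the split for T3 by genotype in CCl4 was 5 higher and 16 lower (6 and 9 in the fit of all libraries), and 4 were called for KO in PBS CCl4 and 7 for T3 by CCl4 in KO. Library totals alone gave 4 for T3 by genotype in oil, and KO in PBS CCl4 gave 0 with them, with DESeq2 size factors and with no filter. The cause of these changes was not tested, except that the fit of only the groups compared has fewer samples.

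Leaving out 1 library at a time gave 0 to 0 called members for CCl4 by genotype in PBS and for KO in PBS oil, 0 to 1 for CCl4 in WT T3, 1 to 6 for CCl4 by genotype in T3, 12 to 21 for CCl4 in KO PBS, 17 to 19 for CCl4 in KO T3, 20 to 24 for CCl4 in WT PBS, 0 to 11 for KO in PBS CCl4, 7 to 13 for KO in T3 CCl4 and 2 to 5 for KO in T3 oil. It gave 1 to 7 for T3 by CCl4 in KO, 15 to 21 for T3 by CCl4 in WT, 10 to 22 for T3 by genotype in CCl4, 1 to 2 for T3 by genotype in oil, 1 to 10 for T3 in KO CCl4, 1 to 3 for T3 in KO oil, 21 to 25 for T3 in WT CCl4 and 5 to 7 for T3 in WT oil.

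Over all genes, calls moved by over 1.5 times for KO in PBS CCl4 (351, against 209 without both libraries that stand apart, 750.0 with DESeq2, 205 without the filter and 3 with only its groups), T3 in KO CCl4 (396, against 1149 without both libraries, 666 with DESeq2 and 86 with only its groups), T3 by CCl4 in KO (578, against 1232 without both libraries), KO in PBS oil (84, against 141 with DESeq2), T3 by CCl4 in WT (3722, against 6004 with library totals alone) and CCl4 by genotype in PBS (3, against 0 without both libraries and with only its groups). With only the groups compared there were 3489 calls for CCl4 by genotype in T3 (2099), 4504 for CCl4 in WT PBS (7202), 818 for CCl4 in WT T3 (531), 2300.0 for T3 by genotype in CCl4 (3538) and 4143 for T3 in WT CCl4 (6506). Library totals alone moved the median of all genes to 0.434 for CCl4 in WT PBS, with a member median of -0.13, and to -0.418 for T3 in WT CCl4, with a member median of 0.28.

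Animals with the same replicate number did not deviate together throughout any comparison. Over 48 pairs the correlation of their deviations from the group means ran from -0.442 to 0.598, with a median of 0.0084. Of these pairs 11 were over 0.1, and no comparison had all 4 pairs over 0.1, a rule that does not exclude shared handling of single pairs. With the replicate number as a block, called members numbered 24 for CCl4 in WT PBS, 6 for CCl4 by genotype in T3 (2 higher, 4 lower), 12 for KO in T3 CCl4, 5 for KO in T3 oil, 6 for T3 in KO CCl4 9 for T3 in WT oil and 19 for CCl4 in KO PBS (6 higher, 13 lower, against 5 and 14 without the block), and the other comparisons had the same counts with and without it. Limits are set by 4 animals a group, by the 1 to 55 reads per library of Plat, F13a1, Plau and Plaur in uninjured livers, by whole-liver RNA, and by the unknown strand setting for F8 and Serpind1.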
